A study of Mus musculus with 4 samples.

Results

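The genes described here carry symbols of the Wnt, Notch, TGF-beta and Hedgehog pathways: ligands, receptors, inhibitors, SMADs, catenin-complex proteins and TCF factors. They were taken by a pattern of symbol beginnings from the authors' sheet of called probes, among rows with 1 gene symbol. The pattern matched 74 probes of 67 genes, of 8519 genes named in the sheet. By pathway there were 22 Wnt, 7 Notch and 29 TGF-beta and BMP genes and 0 Hedgehog genes, and 9 further genes matched by name only. Only probes in the authors' list of changes carry a name, so that these genes changed is no result here. What can be described is direction, size, level and how far each value withstands another processing.

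The arrays were single-colour, hybridised with Cy5-labelled RNA of the mouse neural progenitor line C17.2. In the berberine group (2 arrays) the medium held 7.38 mM AAPH, a water-soluble source of peroxyl radicals, together with 1.69 µM berberine, a plant isoquinoline alkaloid, for 12 h. In the AAPH-only group (2 arrays) it held 7.38 mM AAPH alone for 12 h. Every culture was thus oxidant-damaged, there is no undamaged group among these samples, and nothing in the labels says whether the 2 arrays of a group came from separate cultures, so p-values measure the spread between arrays, which may be technical.

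The Wnt, TGF-beta, BMP, Notch and Hedgehog routes pass signals between neighbouring cells and set whether neural progenitors divide, stay undifferentiated or become neurons or glia. Wnt ligands bind Frizzled receptors and LRP5 or LRP6, which stops the APC and Axin complex from destroying beta-catenin, the partner of TCF and LEF factors. TGF-beta, activin and BMP ligands bind pairs of type II and type I serine kinase receptors that phosphorylate SMADs, which enter the nucleus with SMAD4. In Notch signalling, a Delta or Jagged ligand on the neighbouring cell leads to cleavage of the receptor, whose inner part joins RBPJ and a Mastermind protein on DNA.

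Array medians were 189 and 206 with berberine, against 333 and 273 with AAPH alone. On quantile-normalized log2 values, limma called 62.7% of all 26423 probes, 40.2% higher and 22.5% lower with berberine, at an adjusted p under 0.05. On the values as deposited it called 13.4% higher and 19.8% lower. The median log2 difference over all probes was 0.39 with quantile normalization, 0.13 with deposited values and 0.74 with centring on medians, and each fold change should be read against it. Of 16 progenitor markers 7 had a named probe, 3 called higher and 4 lower, with summed intensities of 4617 and 5066 with berberine and 21147 and 18296 with AAPH alone. All 7 were detected with AAPH alone and 5 with berberine, where Sox9 and Hes1 were at background. Nestin, Sox2 and Pax6 had no named probe. Named markers of other types were called too, but a probe is named only if the authors called it. Of all named genes 99.7% were called here, 55.6% higher and 44.1% lower. Of the endothelial markers 2 of 4 were named, both higher, with sums of 819 and 854 with berberine against 535 and 534. Of the microglia markers 2 of 5 were named, 1 higher and 1 lower, with 218 and 291 against 943 and 805. Of the astrocyte markers 3 of 5 were named and all 3 were called higher, with sums of 4504 and 4381 against 2752 and 2291. As for oligodendrocytes, 5 of 6 oligodendrocyte-lineage markers were named and all 5 were called higher, with sums of 50563 and 44301 against 19706 and 16031. Of the neuron markers 6 of 6 were named, 4 higher and 2 lower, with sums of 7022 and 6287 against 18782 and 15059, and of the fibroblast markers 3 of 4, 1 higher and 2 lower, with 5652 and 4768 against 9568 and 8019. Their part in the results below was not tested, and fewer cells of a type and less RNA per cell cannot be told apart.

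A set of 4 promoter windows is shown because results described further on turn on these genes: beta-catenin, 2 TGF-beta ligands that fell together, and an inhibitory SMAD. Each runs from 250 bases before to 50 after a RefSeq start (GRCm38.p6), and capitals mark matches to the motifs searched. They were chosen with the values known.
Ctnnb1, chr9:120933328-120933627, plus strand: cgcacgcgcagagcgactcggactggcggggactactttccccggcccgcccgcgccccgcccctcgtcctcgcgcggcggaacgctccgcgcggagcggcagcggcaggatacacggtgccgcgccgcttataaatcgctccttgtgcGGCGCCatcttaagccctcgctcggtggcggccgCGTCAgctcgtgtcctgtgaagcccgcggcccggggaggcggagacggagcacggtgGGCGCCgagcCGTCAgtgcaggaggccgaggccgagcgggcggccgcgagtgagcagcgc
Tgfb1, chr7:25686752-25687051, plus strand: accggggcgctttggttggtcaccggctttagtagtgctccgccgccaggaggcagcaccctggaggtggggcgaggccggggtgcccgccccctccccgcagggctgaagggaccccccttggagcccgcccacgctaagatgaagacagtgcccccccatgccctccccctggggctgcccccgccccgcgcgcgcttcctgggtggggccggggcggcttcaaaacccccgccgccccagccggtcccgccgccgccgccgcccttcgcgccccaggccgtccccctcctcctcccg
Tgfb2, chr1:186705940-186706239, minus strand: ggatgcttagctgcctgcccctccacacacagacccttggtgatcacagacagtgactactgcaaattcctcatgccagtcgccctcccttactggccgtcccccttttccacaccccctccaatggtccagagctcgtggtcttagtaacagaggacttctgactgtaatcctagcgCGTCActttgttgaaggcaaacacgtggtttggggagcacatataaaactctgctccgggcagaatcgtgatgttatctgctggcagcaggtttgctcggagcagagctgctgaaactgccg
Smad6, chr9:64022010-64022309, minus strand: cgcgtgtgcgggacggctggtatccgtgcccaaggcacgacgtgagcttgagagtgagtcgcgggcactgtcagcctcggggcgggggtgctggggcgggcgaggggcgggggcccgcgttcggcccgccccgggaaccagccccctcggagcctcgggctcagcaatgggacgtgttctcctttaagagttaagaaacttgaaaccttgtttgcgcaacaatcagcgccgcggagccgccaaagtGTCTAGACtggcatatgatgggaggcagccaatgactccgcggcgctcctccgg

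Capitals in the Smad6 window are the palindrome GTCTAGAC that SMAD proteins bind. It was present in 0.213% of the 32851 RefSeq promoter windows, and 1 of the 49 member genes with a window in the table, Smad6, held it. In the Ctnnb1 and Tgfb2 windows, CGTCA is the reverse strand of TGACG, the core of the cyclic AMP response element, which was in 20.8% of all windows and in those of 10 member genes. The full element, TGACGTCA, was in 1.79% of all windows and in that of Dvl1. The GC-rich BMP element GGCGCC, which also stands in the Ctnnb1 window, was in 11.9% of all windows and in those of 14 member genes. A Ctnnb1 window was shown only if it held GGCGCC, so its presence there was fixed by that choice. The TCF and LEF core CTTTGAT was in 3.73% of all windows and in those of Maml1 and Wnt5b, and the RBPJ site GTGGGAA was in 6.38% of all windows and in those of 5 member genes. Both strands were searched, and TGACG also matches inside TGACGTCA. The 49 member genes had 66 windows, and a gene was counted if any of its windows held the motif. Gene counts are therefore not comparable with the shares of single windows. These are letters in a window, with no binding data in the series. The Tgfb1 window, with 77.0% G and C, held none of these motifs.

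The Wnt genes were split in direction within most roles. Ligands were called higher in 3 and lower in 1 of 4, and receptors higher in 4 and lower in 2 of 6, but as deposited only 1 ligand and 2 receptors kept a call as higher. Both Dickkopf genes, grouped here as secreted antagonists, rose and 3 of 4 DNA-binding factors fell under both scalings. Of the 22 Wnt genes, 12 rose and 10 fell (median log2 fold change 1.26), beside 99.7% of named genes called, 55.6% higher and 44.1% lower (median 1.22). As deposited, 6 of the 12 rises kept their call, and all 10 falls did (median 0.24). Of all named genes 31.1% were called higher and 43.3% lower as deposited (median 0.45). No Wnt gene had overlapping groups in deposited intensity, 12 lying above and 10 below. Over all probes 35.3% lay above and 31.6% below. Among the 8519 named genes, selected as the members were, 4448 lay above, 3764 below and 307 overlapped.

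**Figure D1:**
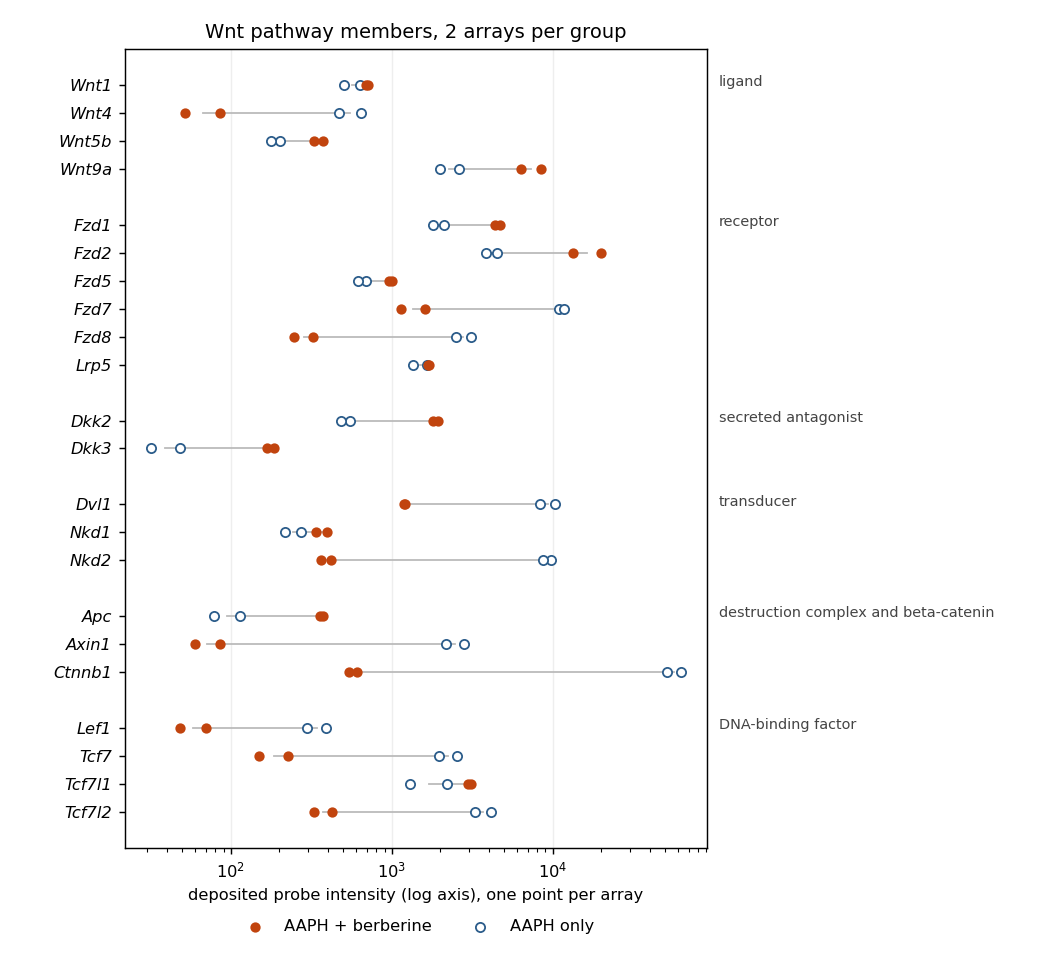
Deposited intensity (log axis) of the brightest named probe of each of the 22 Wnt genes, grouped by role. Filled points are the 2 berberine arrays, open points the 2 AAPH-only arrays and lines join the group means of log values. The groups of Ctnnb1 lie farthest apart (608 and 539 against 62325 and 51490), those of Lrp5 close together.

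Among ligands, Wnt9a, a member of the Wnt family, had 8479 and 6387 with berberine, against 2596 and 1984 with AAPH alone. It rose by 2.34 ± 0.117 (log2, SE of the fit, adjusted p = 0.000537), and by 1.70 as deposited (adjusted p = 0.0192). Wnt4 went the other way, with 52 and 86 with berberine, where it was at background, against 640 and 470 with AAPH alone, so that it was at least 3.09-fold lower (adjusted p = 0.000686). Here and below, "at least" sets the bright group's mean against the higher of a dim probe's own value and the lowest value detected on that array. These bounds are on quantile-normalized values and need not hold for values as deposited. The remaining 2 named ligands were called higher after quantile normalization and median centring, but not as deposited. Wnt1, the founding mouse Wnt gene, had 688 and 710 with berberine against 633 and 503 with AAPH alone (log2 1.31 ± 0.115, adjusted p = 0.00171, but 0.31 and adjusted p = 0.402 as deposited). Wnt5b, mostly known for beta-catenin-independent signalling, had 326 and 376 against 203 and 177 (1.56 ± 0.129, adjusted p = 0.00147, but 0.89 and 0.055 as deposited).

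Frizzled receptors did not move together. Fzd2 had 19881 and 13253 with berberine against 4515 and 3841 with AAPH alone, and rose by 2.29 ± 0.144 (adjusted p = 0.000804, as deposited 1.96 and 0.0155). Fzd1 had 4724 and 4372 against 2106 and 1797 and rose by 1.99 ± 0.121 (adjusted p = 0.000753, as deposited 1.22 and 0.0237). Fzd7, by contrast, had 1602 and 1133 with berberine against 10995 and 11716 with AAPH alone and fell by 2.57 on the log2 scale (SE 0.224, adjusted p = 0.00164). Fzd7 thus had the highest intensity of the named Frizzled probes with AAPH alone, while Fzd2 had the highest with berberine, though levels of different probes are not comparable as amounts of RNA. Fzd8 had 246 and 325 against 3100 and 2490 on its brighter probe, a log2 fold change of −2.38 (SE 0.181, adjusted p = 0.00119). Its dimmer probe went up, as described with the probe pairs. Fzd5 and the co-receptor Lrp5 were called higher after quantile normalization and median centring, but not as deposited. Fzd5 had 1003 and 960 against 692 and 612 (1.59 ± 0.118, as deposited 0.59, adjusted p = 0.122). Lrp5 had 1672 and 1706 against 1657 and 1354 (1.22 ± 0.125, as deposited 0.17, adjusted p = 0.626), the deposited values of the groups being nearly equal.

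The secreted Dickkopf genes were higher. Dkk2, which encodes a modulator of LRP5 and LRP6, had 1798 and 1927 with berberine against 551 and 483 with AAPH alone and rose by 2.71 ± 0.145 (adjusted p = 0.000599). Dkk3, a divergent family member, had 167 and 185 with berberine against 32 and 48 with AAPH alone, where it was at background, and was at least 2.16-fold higher (adjusted p = 0.000451). Both kept their call as deposited (1.85 and 2.17).

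Inside the cell, 2 of 3 genes of the destruction complex and beta-catenin fell, and so did 2 of 3 genes acting at Dishevelled. Ctnnb1, which encodes beta-catenin, had 608 and 539 with berberine against 62325 and 51490 with AAPH alone. It fell by 6.35 on the log2 scale (SE 0.121, 81.4-fold, adjusted p = 0.000186), measured above background in both groups. Axin1, the scaffold of the destruction complex, had 60 and 85 against 2826 and 2174 and was at least 12.9-fold lower (adjusted p = 0.000189), at background with berberine. Apc, the other large protein of that complex, had 375 and 357 with berberine against 114 and 79, at background with AAPH alone, and was at least 5.15-fold higher (adjusted p = 0.00111). That bound did not hold as deposited, where Apc was 3.86-fold higher (adjusted p = 0.0131). The complex and its substrate therefore did not share a direction at the level of probe signal. Dvl1, a Dishevelled protein that carries the signal from Frizzled, had 1191 and 1211 against 10369 and 8320 and fell by 2.36 on the log2 scale (SE 0.12, adjusted p = 0.000555). Nkd2 and Nkd1 encode Naked cuticle proteins that bind Dishevelled and restrain Wnt signalling. Nkd2 had 364 and 418 against 9790 and 8665 and fell by 4.02 on the log2 scale (SE 0.144, 16.2-fold, adjusted p = 0.000298). Nkd1 had 336 and 398 against 272 and 217 and rose by 1.33 ± 0.143 after quantile normalization (adjusted p = 0.00279), but not as deposited (0.59, adjusted p = 0.165).

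Of the 4 DNA-binding partners of beta-catenin, 3 fell and 1 rose. Tcf7, which encodes TCF1, had 150 and 227 with berberine against 2537 and 1975 with AAPH alone and fell by 2.73 on the log2 scale (SE 0.215, adjusted p = 0.0013). Tcf7l2, which encodes TCF4, had 425 and 326 against 4108 and 3291 and fell by 2.41 on the log2 scale (SE 0.203, adjusted p = 0.00153). Lef1 had 70 and 48, at background, against 392 and 297 and was at least 2.04-fold lower (adjusted p = 0.0172). Its call was lost without the first AAPH-only array (adjusted p = 0.103) or the second (0.123). Tcf7l1, which encodes TCF3 and is known mainly as a repressor, had 2955 and 3124 with berberine against 2195 and 1302 with AAPH alone (1.74 ± 0.216, adjusted p = 0.00417). The Tcf7l1 call was lost as deposited (0.85, adjusted p = 0.145) and without the second berberine array (adjusted p = 0.0518).

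In the TGF-beta and BMP family, all 3 TGF-beta ligands, 5 of 8 BMP, GDF and activin ligands and 4 of 7 receptors fell. Of the 4 SMADs that carry the signal 3 were called higher, and 2 as deposited. Of its 29 genes 14 rose and 15 fell (median of log2 fold changes −1.17), beside 55.6% of named genes higher and 44.1% lower. As deposited 8 rises and all 15 falls kept their call (median −1.68). In deposited intensity 12 genes lay above, 15 below and 2 overlapped, beside 35.3% of all probes above and 31.6% below. Of the 8519 named genes 4448 lay above, 3764 below and 307 overlapped. Of the falls, 6 ended at background with berberine.

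**Figure D2:**
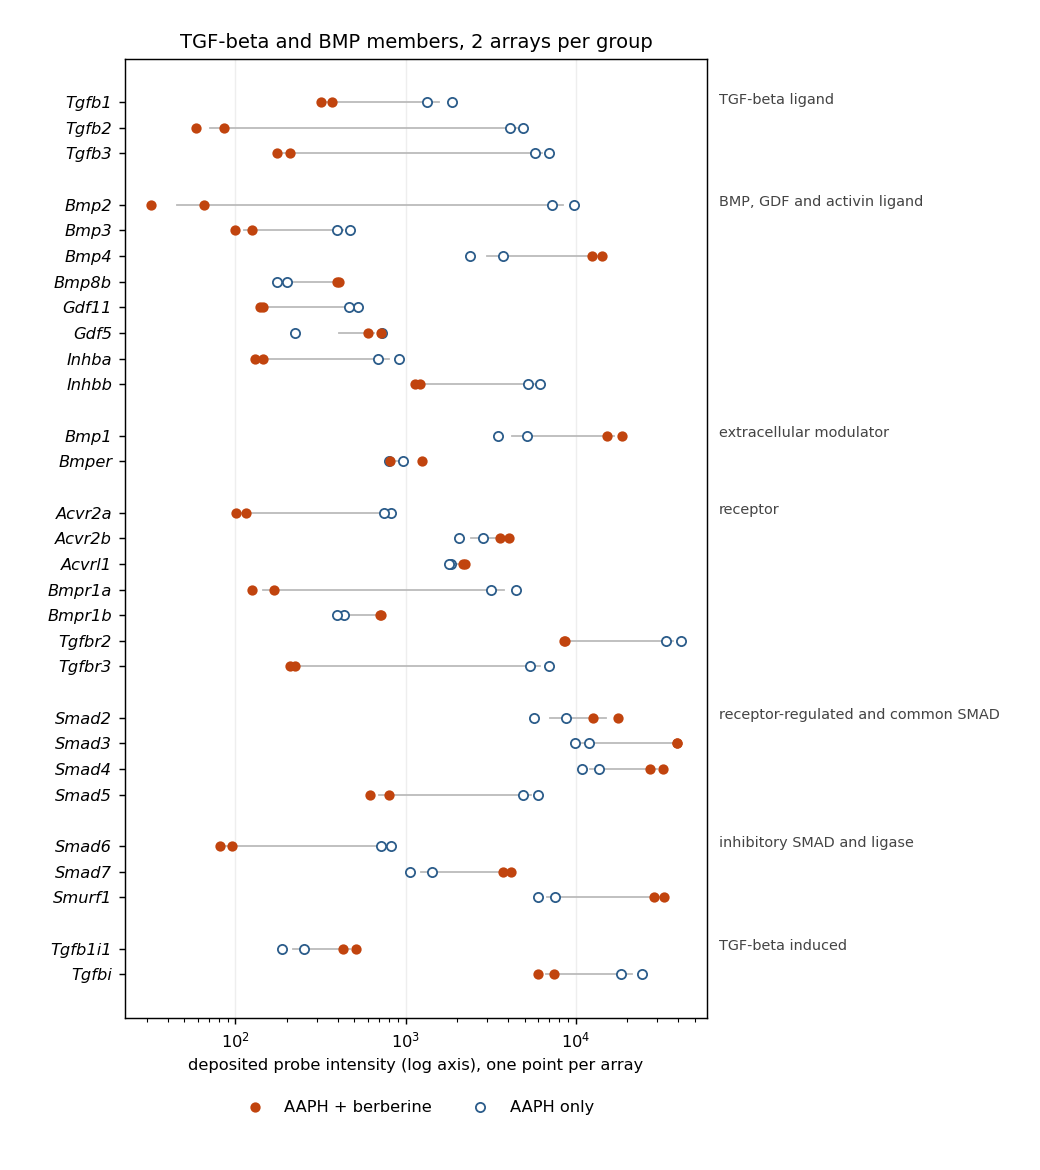
Deposited intensity (log axis) of the brightest named probe of each of the 29 TGF-beta and BMP genes, grouped by role. Filled points are the 2 berberine arrays, open points the 2 AAPH-only arrays and lines join the group means of log values. All 3 TGF-beta ligands lie lower with berberine. Bmp2 and Bmp4 lie on opposite sides, and the groups of Gdf5 and Bmper overlap.

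All 3 TGF-beta ligands fell. Tgfb2 had 59 and 86 with berberine, at background, against 4898 and 4121 with AAPH alone and was at least 26.3-fold lower (adjusted p = 0.000186). Tgfb3 had 208 and 176 against 6989 and 5778 and fell by 4.58 on the log2 scale (SE 0.192, 23.9-fold, adjusted p = 0.000394). Tgfb1 had 317 and 367 against 1868 and 1333 and fell by 1.19 on the log2 scale (SE 0.144, adjusted p = 0.00386). As deposited it fell by 2.21 (adjusted p = 0.00951), so the size of the Tgfb1 change depended on the scaling.

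The closely related ligands Bmp2 and Bmp4 went apart. Bmp2 had 32 and 65 with berberine, at background, against 9700 and 7205 with AAPH alone, and was at least 59-fold lower (adjusted p = 0.000186). Bmp4 had 14196 and 12367 with berberine against 3731 and 2401 with AAPH alone and rose by 2.60 ± 0.181 (6.07-fold, adjusted p = 0.000991, as deposited 2.15 and 0.0135). Bmp8b, a dim probe, rose, with 395 and 407 with berberine against 201 and 176 with AAPH alone (1.81 ± 0.111, adjusted p = 0.000767, as deposited 1.09 and 0.0288). Bmp3, which can oppose other BMPs, had 100 and 125, at background, against 472 and 393 and was at least 2.34-fold lower (adjusted p = 0.00131).

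The activin subunits and Gdf11 fell. Inhba had 130 and 145 with berberine against 920 and 688 with AAPH alone, a log2 fold change of −1.83 (SE 0.118, adjusted p = 0.000846). Inhbb had 1210 and 1131 against 6180 and 5224, a log2 fold change of −1.51 (SE 0.111, adjusted p = 0.00112). Gdf11, a ligand that restrains neurogenesis in mouse olfactory epithelium, had 140 and 145 against 523 and 464, a log2 fold change of −1.17 (SE 0.142, adjusted p = 0.00385). Gdf5 had 600 and 716 with berberine against 729 and 225 with AAPH alone, so its groups overlapped. Its quantile-normalized rise of 1.63 ± 0.464 (adjusted p = 0.0427) lost its call as deposited (0.69, adjusted p = 0.475), without either berberine array (0.159 and 0.23), without the second AAPH-only array (0.0694), after median centring (0.142) and with the replicate number as a block (0.0648).

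Of 2 extracellular modulators, Bmp1, a procollagen proteinase that also cleaves the BMP antagonist chordin, had 18703 and 15164 with berberine against 5144 and 3474 with AAPH alone. It rose by 2.29 ± 0.164 (adjusted p = 0.00105, as deposited 1.99 and 0.0153). Bmper, a secreted BMP-binding protein, had 1249 and 810 against 961 and 800. The groups of Bmper overlapped, and its rise of 1.24 ± 0.208 (adjusted p = 0.00958) lost its call as deposited (0.20, adjusted p = 0.685), after median centring (0.12) and without either AAPH-only array (0.0816 and 0.0783).

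Among receptors 4 fell and 3 were called higher. Tgfbr2, the type II receptor that binds TGF-beta, had 8605 and 8510 with berberine against 41360 and 33743 with AAPH alone and fell by 2.28 on the log2 scale (SE 0.136, adjusted p = 0.000729). Tgfbr3, the co-receptor betaglycan that presents TGF-beta2 to Tgfbr2, had 209 and 224 against 6966 and 5414 and fell by 4.30 on the log2 scale (SE 0.116, 19.7-fold, adjusted p = 0.000193). Ligands and both of these TGF-beta receptors were thus lower on all berberine arrays than on any AAPH-only array. Bmpr1a, a type I BMP receptor, had 169 and 125, at background, against 4479 and 3180 and was at least 16.7-fold lower (adjusted p = 0.00114). Its paralogue Bmpr1b had 708 and 715 with berberine against 437 and 394 (1.70 ± 0.123, adjusted p = 0.00106, but 0.78 and 0.0628 as deposited). A like split was seen in the type II activin receptors. Acvr2a had 101 and 116, at background, against 822 and 750 and was at least 4.09-fold lower (adjusted p = 0.000714), while Acvr2b had 4068 and 3597 against 2833 and 2054 (1.46 ± 0.126, adjusted p = 0.00161, but 0.67 and 0.151 as deposited). Acvrl1, the type I receptor ALK1 known from endothelium, had 2163 and 2220 against 1838 and 1798 (1.25 ± 0.166, adjusted p = 0.00491, but 0.27 and 0.402 as deposited). None of the 3 receptors called higher kept that call as deposited, and all 4 lower ones did.

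Of the SMADs that carry the signal, Smad3, which acts downstream of TGF-beta and activin, had 39311 and 39548 with berberine against 11902 and 9891 with AAPH alone and rose by 1.66 ± 0.139 (adjusted p = 0.00149, as deposited 1.86 and 0.00879). Smad4, the partner shared by both branches, had 32612 and 27378 against 13684 and 10836 and rose by 1.10 ± 0.111 (adjusted p = 0.00235, as deposited 1.30 and 0.0276). Smad5, of the BMP branch, had 796 and 618 against 6029 and 4887 and fell by 2.13 on the log2 scale (SE 0.154, adjusted p = 0.00108). Smad2 had 17770 and 12626 with berberine against 8708 and 5709 on its brighter probe (1.19 ± 0.191, adjusted p = 0.00858). The Smad2 call was lost as deposited (1.09, adjusted p = 0.0877) and without either berberine array (0.0608 and 0.0593), and its dimmer probe went down.

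The inhibitory SMADs went in opposite directions. Smad7, which blocks TGF-beta receptors and is itself induced by TGF-beta, had 4147 and 3747 with berberine against 1420 and 1066 with AAPH alone and rose by 2.49 ± 0.119 (5.61-fold, adjusted p = 0.0005, as deposited 1.68 and 0.0154). Smad6, which acts mainly on the BMP branch, had 81 and 96, at background, against 822 and 721 and was at least 4.17-fold lower (adjusted p = 0.000565). Smurf1, a ubiquitin ligase that targets SMADs and, with Smad7, receptors, had 32805 and 28968 against 7586 and 5975 and rose by 2.19 ± 0.114 (adjusted p = 0.000574, as deposited 2.19 and 0.00717). Tgfbi, a matrix protein named for its induction by TGF-beta, had 7409 and 5965 against 24458 and 18457 and fell by 1.72 on the log2 scale (SE 0.123, adjusted p = 0.00106). Tgfb1i1, the focal adhesion protein Hic-5, had 513 and 428 against 252 and 188 and rose by 1.88 ± 0.157 (adjusted p = 0.00147, as deposited 1.11 and 0.0475).

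No Notch member was at background in either group, and log2 fold changes ran from −1.51 to 2.43. Of 7 genes 4 were called higher and 3 lower (median 1.33, with 55.6% of named genes higher and 44.1% lower), and as deposited 2 rises and all 3 falls kept their call (median 0.28). Jag1, a Jagged ligand, had 6779 and 4103 with berberine against 2397 and 2025 with AAPH alone (1.97 ± 0.17, adjusted p = 0.00161, as deposited 1.26 and 0.0595). Dll1, a Delta ligand, had 129 and 124 against 512 and 413 and fell by 1.31 on the log2 scale (SE 0.165, adjusted p = 0.00431). Without the second AAPH-only array the adjusted p for Dll1 was 0.0507.

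The receptor Notch3 had 190 and 217 with berberine against 1029 and 767 with AAPH alone and fell by 1.30 on the log2 scale (SE 0.115, adjusted p = 0.00171). Notch2 had 2046 and 1556 against 8765 and 6601 on its brighter probe and fell by 1.51 on the log2 scale (SE 0.136, adjusted p = 0.00179). Notch4, known mainly from endothelium, had 797 and 1113 against 920 and 650, so its groups overlapped. The call of Notch4 (1.33 ± 0.229, adjusted p = 0.0104) was lost as deposited (0.28, adjusted p = 0.56) and without either AAPH-only array (0.0742 and 0.0916). The Mastermind co-activators were higher. Maml1 had 77853 and 58476 against 16680 and 15977 and rose by 1.70 ± 0.153 (adjusted p = 0.00178, as deposited 2.05 and 0.00913). Maml2 had 7857 and 6244 against 2275 and 1837 on its brighter probe and rose by 2.43 ± 0.109 (adjusted p = 0.000442, as deposited 1.78 and 0.0138).

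Of 7 Hedgehog core genes looked for, among them Gli1, Gli2, Gli3, Ptch1, Smo and Sufu, 0 had a single-symbol named probe, so nothing is shown here of their levels. The same holds for Gsk3a, Gsk3b, Axin2, Notch1, Tgfbr1 and Smad1. Both Ptchd genes, which matched by name only, encode patched-domain proteins that are not the Hedgehog receptor.

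The 9 genes matched by name only are not pathway components in the usual sense. Tcf3 and Tcf12 encode E proteins of the basic helix-loop-helix class, Tcf15 a mesodermal factor and Tcf25 an unrelated protein. Of these 9 genes 6 fell and 3 were called higher (median −1.91, or −0.85 with genes at background set to their bound, beside 44.1% of named genes lower and 55.6% higher), and as deposited all 6 falls and 0 of the 3 rises kept their call. Tcf3 had 32 and 76 with berberine, at background, against 20461 and 17220 with AAPH alone and was at least 154-fold lower (adjusted p = 0.000243), the largest bound among the 67 genes. Dkkl1, a Dickkopf-like gene known from testis, had 80 and 84 against 5703 and 4306 and was at least 29.8-fold lower (adjusted p = 0.000303). Tcf25 had 20 and 33 against 3432 and 2598 and was at least 15.8-fold lower, and Tcf12 had 42 and 45 against 3043 and 2607 and was at least 14.8-fold lower (adjusted p = 0.000568 and 0.000844). Mamld1 was at least 1.72-fold lower (adjusted p = 0.0038). Ctnnbl1, a spliceosome-associated protein, fell by 0.85 on the log2 scale (SE 0.148, adjusted p = 0.0107), a call lost without either AAPH-only array (0.0647 and 0.0842). Tcf15 (1.30), Ptchd1 (1.55) and Ptchd4 (1.97) were called higher after quantile normalization, but not as deposited (adjusted p = 0.306, 0.139 and 0.103). Ptchd4 also lost its call without either AAPH-only array (0.0725 and 0.0694). Without these 9 genes the median over the 58 pathway genes was 1.15, against −0.85 over all 67, and as deposited 0.19 against −1.38.

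For 7 genes 2 probes were named, and in 5 of these the probes moved in opposite directions (71.4%). Among all 623 named genes with several probes, 47.5% held probes of opposite sign. Notch2 fell on its brighter probe, but had 689 and 639 with berberine against 580 and 452 with AAPH alone on the dimmer (1.34 ± 0.111, adjusted p = 0.00145, as deposited 0.37 and 0.333). Smad2 had 599 and 627 against 2794 and 2352 on its dimmer probe, a log2 fold change of −0.98 (SE 0.119, adjusted p = 0.00394), where the brighter was called higher. For Fzd8 the dimmer probe had 335 and 216 against 56 and 74, at background with AAPH alone, and was at least 3.54-fold higher (adjusted p = 0.00502). Maml2 had 71 and 114 against 262 and 217 on its dimmer probe, at least 1.48-fold lower (adjusted p = 0.00983), and Ptchd4 had 49 and 75 against 183 and 165, at least 1.12-fold lower (adjusted p = 0.00178). In Fzd2 and Ptchd1 both probes were called higher, with log2 fold changes of 2.29 and 1.04 for Fzd2 and of 1.55 and 1.94 for Ptchd1. A statement on 1 of these 5 genes therefore holds for a probe and not for the gene.

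**Figure D3:**
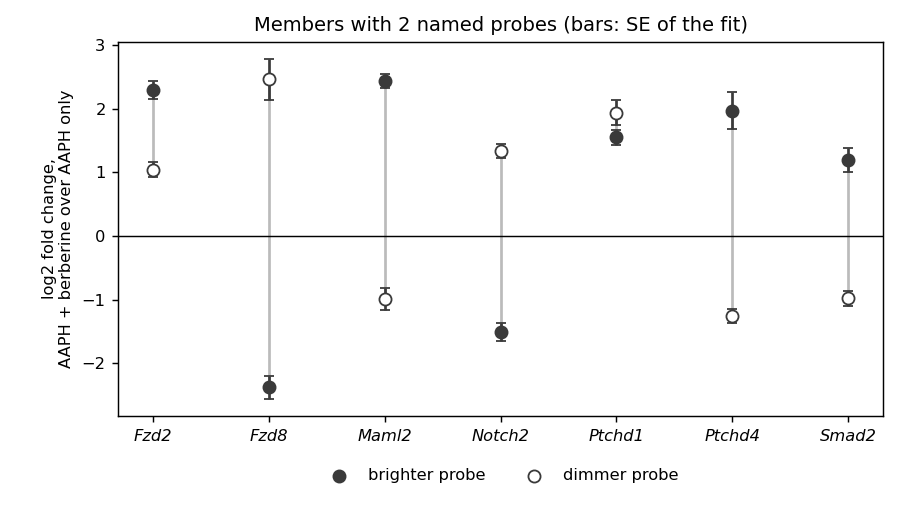
Log2 fold change with berberine (y axis, quantile-normalized, bars are the SE of the fit) for both named probes of 7 genes. Filled points are the brighter probe and open points the dimmer. In Fzd8, Maml2, Notch2, Ptchd4 and Smad2 the points lie on opposite sides of 0.

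Rises lost their call on deposited values more often than falls, among the members and among all named genes. Over the 67 genes, 33 were called higher and 34 lower (named genes 55.6% and 44.1%), with adjusted p from 0.000442 to 0.0427 for rises and from 0.000186 to 0.0172 for falls. Among members above background in both groups, log2 fold changes ran from −6.35 (Ctnnb1) to 2.71 (Dkk2). On the values as deposited, all 34 falls and 16 of the 33 rises kept their call. Of all named genes 4739 were called higher and 3754 lower after quantile normalization, against 2653 and 3685 as deposited. No member changed sign under that scaling or under median centring. Groups of 3 genes, Gdf5, Bmper and Notch4, overlapped in deposited intensity, as did those of 307 of all 8519 named genes.

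**Figure D4:**
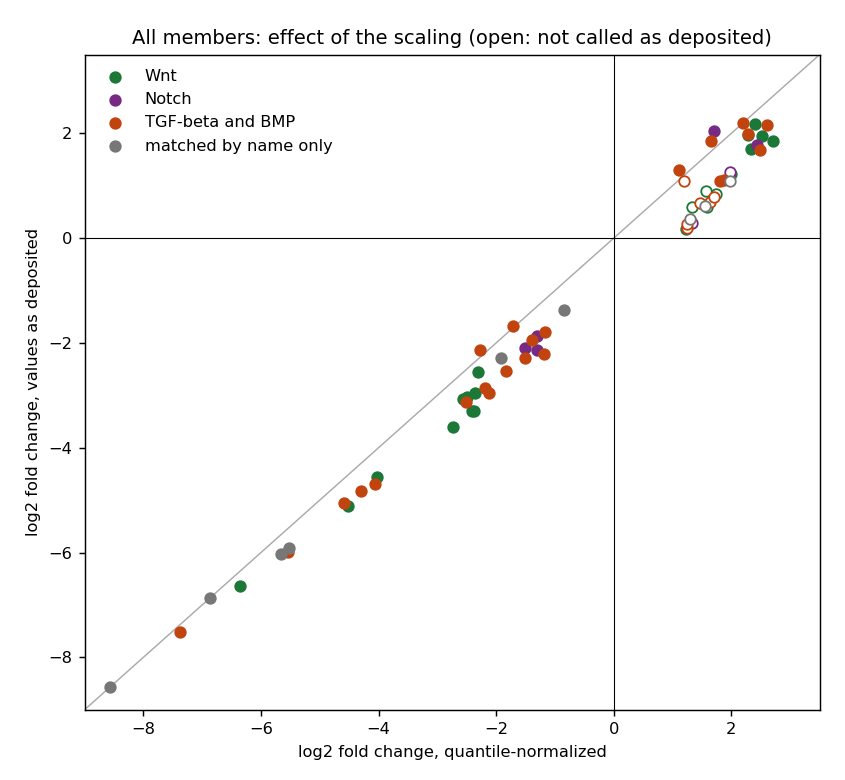
Log2 fold change of the 67 genes after quantile normalization (x axis) and on values as deposited (y axis), coloured by pathway, with the line of equality. Open points, 17 in number, lost their call as deposited, and all of them are rises.

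Genes with a high level on the AAPH-only arrays were lower with berberine most often, among these genes and among all named genes. Of 21 members in the brightest of 3 equal classes of named genes by that level, 71.4% were lower with berberine (all named genes 66.8%). In the middle class 40.0% of 20 members were lower (named genes 41.0%), and in the dimmest 42.3% of 26 (named genes 24.3%). The middle and dimmest classes were thus alike among the members, while among named genes the share differed between them. Level and fold change share the AAPH-only arrays, so this is a description only. The series of the probe, read from its identifier, is given for the members beside all named genes, with no test of the difference: 51.2% of 41 genes with a PH_mM probe were called higher and 45.5% of 22 with an mMC probe, against 65.8% and 42.9% among all named genes. The part of level and probe series in the results was not tested.

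**Figure D5:**
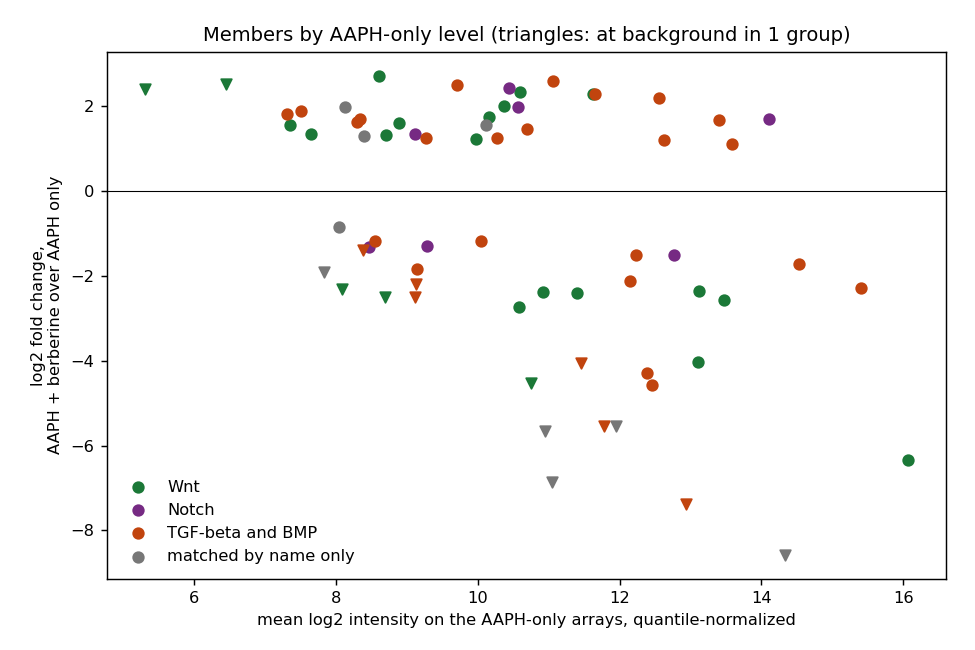
Log2 fold change with berberine (y axis) of the 67 genes against mean log2 intensity on the 2 AAPH-only arrays (x axis, quantile-normalized), coloured by pathway. Triangles are genes at background in 1 group. Values of triangles are fitted values against a probe at background, and the rises form a band below 3 at every level while the falls spread downward in bright genes.

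Further genes of the 4 pathways came from lists that do not overlap with the symbol pattern. Of 78 further Wnt genes 36 had a named probe, of which 14 rose and 22 fell (median −1.24, and −1.71 as deposited). Beside this, 55.6% of all named genes were called higher and 44.1% lower (median 1.22). As deposited those shares were 31.1% and 43.3% (median 0.45). Daam2, a formin that binds Dishevelled, had 1104 and 720 with berberine against 99 and 109 with AAPH alone, where it was at background, and was at least 12.7-fold higher (adjusted p = 0.000728). That bound did not hold as deposited, where Daam2 was 8.58-fold higher (adjusted p = 0.00503). Invs, inversin of the primary cilium, rose by 3.02 ± 0.198 (adjusted p = 0.000877) and Tle4, a Groucho co-repressor, by 2.80 ± 0.119 (adjusted p = 0.000402). Ccnd1, which encodes cyclin D1, had 1026 and 1011 against 115510 and 98839 and fell by 6.43 on the log2 scale (SE 0.113, adjusted p = 0.000186). Tnks2, a tankyrase that marks Axin for degradation, had 52 and 55, at background, against 3574 and 2489 and was at least 15.8-fold lower (adjusted p = 0.000622). Myc had 41 and 55, at background, against 2104 and 1728 and was at least 9.70-fold lower (adjusted p = 0.000304).

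Of 49 further Notch genes 25 were named, 12 called higher and 13 lower (median −1.0, or −0.33 with genes at background set to their bound). As deposited 7 rises and 13 falls were called. All named genes were 55.6% higher and 44.1% lower, and as deposited 31.1% and 43.3%. Rbpj, the DNA-binding partner of cleaved Notch, had 1446 and 1513 with berberine against 514 and 445 with AAPH alone and rose by 2.52 ± 0.134 (adjusted p = 0.000592). The 2 ADAM proteases that can cleave Notch went apart. Adam17 had 27397 and 17883 against 5384 and 4296 and rose by 2.42 ± 0.153 (adjusted p = 0.000823), while Adam10 had 130 and 135 against 26085 and 22557 and fell by 7.48 on the log2 scale (SE 0.134, adjusted p = 0.000186). Psen2, a catalytic subunit of gamma-secretase, had 12896 and 12728 against 3621 and 3210 and rose by 2.34 ± 0.151 (adjusted p = 0.000851). Mib1, the ubiquitin ligase that activates Notch ligands, had 89 and 124, at background, against 25545 and 23318 and was at least 195-fold lower (adjusted p = 0.000186). Dtx4, a Deltex protein, fell by 4.80 on the log2 scale (SE 0.121, adjusted p = 0.000189).

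Of 64 further TGF-beta and BMP genes 37 were named, of which 18 rose, 18 fell and 1, Trim33, was not called. Their median was 1.09, and 0.70 as deposited with 11 rises called. All named genes were 55.6% higher and 44.1% lower (median 1.22), and as deposited 31.1% and 43.3% (median 0.45). Ltbp4, which stores latent TGF-beta in the matrix, had 26088 and 23280 with berberine against 3281 and 2589 with AAPH alone and rose by 3.43 ± 0.114 (adjusted p = 0.000265). The acetyltransferase Ep300 rose by 2.90 ± 0.142 (adjusted p = 0.000519) and Usp9x, a deubiquitinase of SMAD4, by 2.46 ± 0.111 (adjusted p = 0.000445). Cyr61 (CCN1) had 239 and 195 against 23899 and 18772 and fell by 6.47 on the log2 scale (SE 0.214, adjusted p = 0.000264). Thbs1, which can activate latent TGF-beta, fell by 5.45 on the log2 scale (SE 0.233, adjusted p = 0.000405). Fkbp1a, which holds type I receptors inactive, had 5847 and 5723 against 126265 and 110292 and fell by 4.45 on the log2 scale (SE 0.136, adjusted p = 0.000229).

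Of 42 further Hedgehog genes 26 were named, 14 called higher and 12 lower (median 1.06), and as deposited 11 and 12 (median 0.13). All named genes were 55.6% higher and 44.1% lower (median 1.22), and as deposited 31.1% and 43.3% (median 0.45). The co-receptor Boc had 3616 and 4827 with berberine against 892 and 452 with AAPH alone and rose by 3.41 ± 0.302 (adjusted p = 0.00172). Disp1, which releases the ligand, rose by 2.68 ± 0.188 (adjusted p = 0.00101) and the zinc finger factor Zic2 by 2.74 ± 0.117 (adjusted p = 0.000405). Vertebrate Hedgehog signalling takes place in the primary cilium, and cilium genes of this list were found in both directions. Kif3a, a kinesin subunit of ciliary transport, rose by 2.48 (adjusted p = 0.000811) and Kif7, a ciliary kinesin of the pathway, by 1.84 (adjusted p = 0.000793). Kif3b, on the brighter of its 2 probes, and Kifap3 fell by 3.36 and 1.76 on the log2 scale (adjusted p = 0.000432 and 0.000896). Evc2 had 128 and 184, at background, against 4695 and 4562 and was at least 20.1-fold lower, and Rab23, a GTPase that restrains the pathway, was at least 9.01-fold lower (adjusted p = 0.000501 and 0.000314). Tulp3, which brings receptors into the cilium, fell by 3.54 on the log2 scale (SE 0.129, adjusted p = 0.000309). The ligand Shh had 1378 and 1807 against 1568 and 1520, with overlapping groups. Its call after quantile normalization (1.10 ± 0.224, adjusted p = 0.0168) was lost as deposited (0.03, adjusted p = 0.941), after median centring (0.0676), and without the second berberine (0.0631) or either AAPH-only array (0.11 and 0.0779).

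The following transcriptional targets of the pathways were singled out after their values were seen, so their directions give no count for targets as a class. Beside Ccnd1 and Myc, the Wnt targets Fosl1 (−2.95 ± 0.131), Jun (−2.19 ± 0.182), Tnfrsf19 (−2.55 ± 0.132) and Znrf3 (−1.94 ± 0.118) fell, with adjusted p from limma between 0.000437 and 0.00147. Lgr5, a Wnt target and R-spondin receptor, had 2545 and 2299 with berberine against 1049 and 907 with AAPH alone and rose by 2.23 ± 0.117 (adjusted p = 0.000583). Of the Notch targets, Hes1 had 90 and 188, at background, against 3162 and 2667 and was at least 11-fold lower (adjusted p = 0.00217), and Hey1 had 562 and 368 against 6623 and 5480 (−3.02 ± 0.273, adjusted p = 0.0018). BMP targets of the Id family were lower, with Id2 at −2.66 ± 0.133 (adjusted p = 0.00054), Id4 at least 2.12-fold lower (adjusted p = 0.000649) and Id1 at −1.28 ± 0.234 (adjusted p = 0.0122). The Id1 call was lost without either AAPH-only array (0.0714 and 0.0932). Pmepa1, a TGF-beta target, had 5470 and 4755 against 3333 and 2578 and was called higher (1.48 ± 0.114, adjusted p = 0.00124), but not as deposited (0.80, adjusted p = 0.0891). Many of these genes answer to other signals as well.

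In the authors' deposited table of biological process terms, TGF-beta receptor signalling held 49 called genes of 75 (p = 1.21e-05, q = 0.00276). That term ranked 41 of the 406 listed, and negative regulation of the same signalling held 32 of 54 (q = 0.289). Over the whole array 9800 of 26423 probes were in the authors' list of changes, a count of probes and not of genes. In that deposited table the terms for smoothened signalling (40 of 71, q = 0.291), canonical Wnt signalling (47 of 89, q = 0.446) and Notch signalling (60 of 125, q = 0.785) had q-values above 0.05. Log2 ratios in the authors' deposited table had the same sign as the refit for all 67 genes, which follows from the shared arrays.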

How the data were processed

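The authors deposited a linear probe intensity for 26423 probes on each of 4 arrays; how that table was background-corrected or scaled is not stated in these sources. Their deposited workbook adds, for 9800 probes they had called changed, per the file headers, group means of intensity with a p-value for detection, and a log2 ratio with a p-value, and terms with a q-value. Its groups G1 and G3 were read as AAPH only and berberine, because their means lay within 5% of those of the labelled arrays for 99.9% and 99.2% of probes. Only these 9800 probes are named: 9190 had 1 symbol.

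After a floor of 1 and a log2 step, values were quantile-normalized. Berberine was compared with AAPH only (2 arrays each) by limma (version 3.58.1, R version 4.3.3), using lmFit and eBayes on 26423 probes. Tests were 2-sided, and p-values were adjusted by Benjamini-Hochberg, with calls under 0.05. Adjusted p-values are from limma throughout, in this fit or a named alternative. Log2 fold changes are berberine minus AAPH only. For each gene the brightest named probe, by mean log2 value, stands. A probe was at background in a group where the authors' detection p-value was 0.01 or more. Array limits behind the bounds were log2 7.31 and 6.81 (berberine) and 6.66 and 6.55 (AAPH only), and a bound carries no confidence level. The fit was tested on simulated data with 200 of 26423 probes changed, on arrays otherwise alike. In the real data 62.7% of probes were called and array medians differed. The simulation therefore cannot judge quantile normalization of these arrays. The number of arrays limits the precision.

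Every gene matched by the symbol pattern could be named. For further pathway genes, the 3 largest rises and falls per pathway called under both scalings were named, and others were chosen after their values were seen. Members, lists and pathway roles were chosen with earlier results of these data known. The symbols of the sheet are printed. Promoter sequences come from RefSeq (GRCm38.p6) and were matched by Entrez identifier for 49 of 67 genes. Most further pathway genes are given only within the counts, and some single-gene results are not reported here.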

Additional observations from a re-analysis of the deposited data

How the results depend on the processing

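On the values as deposited, 8770 probes were called in place of 16578, with 3534 higher in place of 10635. Called rises numbered 6 for Wnt, 2 for Notch, 8 for TGF-beta and BMP and 0 for genes matched by name only. Medians of log2 fold changes there were 0.24 (Wnt), 0.28 (Notch), −1.68 (TGF-beta and BMP), −2.29 (name only) and −1.45 (further pathway genes). After median centring they were 0.85 (Wnt), 0.90 (Notch), −1.68 (name only) and −0.84 (further genes), and with log2(value + 50) 1.16 (Wnt), −1.33 (name only) and −0.84 (further genes). The cause was not tested. Dropping genes that were at background in a group, which removes mostly falls by construction, the medians reversed to 1.24 (TGF-beta and BMP), 1.43 (name only) and 1.13 (further genes), with 9, 1 and 43 falls left. Averaging the probes of each gene, the medians were 0.72 (Notch) and −1.04 (further genes), and −1.04 with the dimmest probe (further genes).

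Leaving out an array in turn gave medians from 1.10 to 1.58 (Notch), −2.36 to −1.64 (name only) and −0.96 to −0.88 (further genes), and 11555 to 15508 called probes; with 1 array left, a group is assumed to vary like the other. With the dimmest probe the log2 fold change reversed to 2.46 for Fzd8, −0.99 for Maml2, 1.34 for Notch2, −1.26 for Ptchd4 and −0.98 for Smad2. With the mean of both probes Fzd8 reversed to 0.04 (adjusted p = 0.831), while Notch2 (0.588), Ptchd4 (0.141) and Smad2 (0.502) lost their call. Leaving out the dimmest probes and eBayes with a trend changed no member's call.

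Samples share a replicate number across groups only by name: deviations of same-numbered arrays had a correlation of −0.0156. With the replicate number as a block, 15558 probes were called, the Wnt split stayed at 12 and 10, and of the 67 members only Gdf5 lost its call (adjusted p = 0.0648).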
